A study of Mus musculus with 9 samples.

Results

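The genes described here are 10 receptor chains through which marrow cells sense myeloid and inflammatory cytokines: Il6ra, Il6st, Csf3r, Csf1r, Csf2ra, Il3ra, Csf2rb, Csf2rb2, Ifngr1 and Tnfrsf1a. They were followed through every probe set whose platform annotation names exactly 1 of these symbols, which gave 18 of 45101 probe sets and 10 of 18193 genes. RNA came from Lin-Sca1+cKit+ (LSK) cells, the marrow fraction that holds stem cells and multipotent progenitors, sorted from C57BL/6 mice 8 weeks after transplantation. Lineage-depleted marrow of C57BL/6 donors had been cultured in cytokines, transduced with retroviral vectors and injected into lethally irradiated recipients (10 Gy). The 3 groups were GFP-positive LSK cells from mice given cells transduced with dnMPL, GFP-negative LSK cells from dnMPL mice, and LSK cells from control mice described as transplanted with wild-type LSK cells. There were 3 arrays a group. For every array, marrow of 2 to 5 mice was pooled, and the RNA was amplified before hybridisation. The labels do not give the age of the mice, the promoter of the vector, or whether control cells carried a vector, so dnMPL and transduction cannot be told apart. They also do not say whether the pools of a group are independent of each other, or whether GFP-positive and GFP-negative cells were sorted from the same mice, and p-values therefore measure the spread between arrays.

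Myeloid cytokine receptors fall into a few structural families. Il6ra binds interleukin 6 but needs Il6st, known as gp130, to signal. The GM-CSF and IL-3 receptors likewise join a ligand-binding alpha chain (Csf2ra, Il3ra) to a common beta chain, Csf2rb, and mice carry a further beta chain gene, Csf2rb2, that serves IL-3. The G-CSF receptor Csf3r acts as a homodimer in granulocyte production, and Csf1r is the receptor tyrosine kinase of monocytes and macrophages. Ifngr1 is the ligand-binding chain for interferon gamma and Tnfrsf1a is the type 1 TNF receptor, both of which are known to act on stem cells during infection. Most of these receptors signal through JAK kinases and STAT factors.

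The 5′ flanks of the IL-6 receptor subunits are shown because 1 Il6ra probe set carried the clearest difference among the members. Il6st is the obligatory partner of Il6ra. The sequences are the 250 bases before the annotated start in RefSeq (GRCm38.p6), 5′ to 3′ on the strand of the gene. Il6ra lies on the minus strand, with its window at chr3:89913197-89913446, and Il6st on the plus strand at chr13:112463820-112464069. Capitals mark matches, on either strand, to AGGAAG (the core bound by PU.1 and other ETS factors), TTGCNNAA (C/EBP) or TTCNNNGAA (STAT).
Il6ra: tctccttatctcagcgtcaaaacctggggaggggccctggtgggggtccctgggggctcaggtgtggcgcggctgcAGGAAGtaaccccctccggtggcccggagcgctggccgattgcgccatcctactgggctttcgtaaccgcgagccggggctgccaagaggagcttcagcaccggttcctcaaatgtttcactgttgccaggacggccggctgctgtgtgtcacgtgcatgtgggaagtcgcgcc
Il6st: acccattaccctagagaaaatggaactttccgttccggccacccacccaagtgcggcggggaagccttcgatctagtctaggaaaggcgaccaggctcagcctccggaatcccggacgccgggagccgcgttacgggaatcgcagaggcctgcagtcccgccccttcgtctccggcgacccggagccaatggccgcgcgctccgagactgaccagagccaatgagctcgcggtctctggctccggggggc
The Il6ra window held 1 match, an AGGAAG that begins 174 bases before the start, and the Il6st window held 0 matches to the 3 motifs. Windows were used for 8 of the 10 genes, Csf1r and Csf2rb excepted. AGGAAG occurred in 6 of these 8 windows (Csf2ra, Csf2rb2, Csf3r, Il3ra, Il6ra and Tnfrsf1a), against 29.5% of all 32851 RefSeq windows of the same length. TTGCNNAA occurred in 1 of the 8 (Il3ra), against 9.56% of all windows, and TTCNNNGAA in 2 of the 8 (Csf2rb2 and Tnfrsf1a), against 7.02%. In the Tnfrsf1a window the AGGAAG and TTCNNNGAA matches overlap. A match is a description of the letters, not a bound site.

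Of markers of LSK cells, Kit, Cd34 and Flt3 exceeded the filter on dim probe sets, and Ly6a was not used here. The filter acts on the mean over all arrays, so passing it does not check the identity of a single array. Kit stood at 6.38 to 8.17 on GFP-positive, 7.92 to 8.22 on GFP-negative and 8.08 to 8.73 on control arrays (log2 RMA values, the unit of every level below). GFP-positive 2, the array with the lowest Kit, and control 3 stood apart from the other 7 arrays, with array weights of 0.369 and 0.364 against 0.81 to 2.38. The level of the Gapdh 3′ control probe set minus that of the 5′ one, a sign of RNA quality, was 3.22 on GFP-positive 2 and 3.87 on control 3, against 2.47 to 2.89 on the other 7 arrays. Among the 18 probe sets of the receptors, GFP-positive 2 gave the lowest value of all 9 arrays in 5 and the highest in 4. GFP-positive 3 gave the lowest in 1 and the highest in 6, and control 3 the lowest in 2 and the highest in 0. Values without GFP-positive 2, control 3 or both are given beside many of the results below. In bulk RNA, more cells of a type and more RNA per cell cannot be told apart. The summed linear level of 14 granulocyte markers was 28971 to 54967 on GFP-positive, 18150 to 42623 on GFP-negative and 5587 to 20042 on control arrays. That of 11 monocyte and macrophage markers was 2034 to 6381, 1566 to 4109 and 783 to 2740 in the same groups, with Adgre1, Cd14, Clec7a and Mrc1 below the filter. Most of that sum was Lyz2, which granulocytes also express; the other 10 markers summed to 424 to 651, 368 to 710 and 326 to 711. Of the 7 monocyte and macrophage markers tested, 4 were higher and 3 lower by point estimate in GFP-positive cells against controls (median 0.36), and 3 higher and 4 lower in GFP-negative cells (median -0.085). The sum of 6 erythroid markers was 1205 to 1310 on GFP-positive, 902 to 1097 on GFP-negative and 167 to 338 on control arrays, and that of 6 mast cell and basophil markers was 360 to 1013, 271 to 753 and 212 to 268. The part of such cells in the receptor values was not tested.

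Il6ra was higher by point estimate in both dnMPL fractions than in controls. Its brightest probe set by the mean over all 9 arrays was 1452416_at, although 1422270_a_at was brighter on controls alone (mean 5.60 against 5.25). The choice therefore rested on the dnMPL arrays, where 1452416_at was high. Probe set 1452416_at read 7.41, 8.39 and 6.95 on the GFP-positive arrays 1 to 3. It read 7.01, 6.99 and 6.71 on the GFP-negative arrays and 5.93, 5.91 and 3.92 on the controls. All 6 dnMPL arrays lay above all 3 controls, and control 3 was the lowest of the 9. The summed erythroid markers also lay higher on every dnMPL array than on any control. So did the mast cell and basophil sum, but narrowly, at 271 on GFP-negative 3 against 268 on control 2. The granulocyte sum did not, with 18150 on GFP-negative 3 against 20042 on control 3. Nor did the sums of monocyte and macrophage, B cell, T and NK cell, or endothelial and stromal markers. Of the 6 erythroid genes, 5 were higher and 1 lower by point estimate in GFP-positive cells against controls. In GFP-negative cells 4 were higher and 2 lower. Whether such cells entered the Il6ra values was not tested. The Il6ra difference was 2.33 ± 0.56 (SE) on the log2 scale for GFP-positive cells against controls (95% interval 1.07 to 3.59). For GFP-negative cells against controls it was 1.65 ± 0.56 (0.39 to 2.92). Neither passed limma over all 12398 genes tested (unadjusted p = 0.0023 and 0.016, adjusted p = 0.47 and 0.82). The comparisons share the control arrays, and groups that did not overlap in both, with the dnMPL fractions higher, occurred in 198 genes, or 1.6% of those tested. Without control 3 the differences were 1.67 and 0.99, and without control 3 and GFP-positive 2 together they were 1.26 and 0.99.

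The second Il6ra probe set did not repeat this pattern. 1422270_a_at read 5.95, 5.49 and 5.45 on GFP-positive, 5.85, 5.73 and 5.48 on GFP-negative and 5.61, 5.61 and 5.59 on control arrays. The 3 groups overlapped, and the differences from control were 0.030 ± 0.22 in GFP-positive and 0.085 ± 0.22 in GFP-negative cells. With the mean of both probe sets the Il6ra differences were 1.18 and 0.87. The levels of the 2 probe sets correlated at r = 0.12 over the 9 arrays, which share group differences and RMA processing.

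Il6st, the signalling chain that Il6ra and several other receptors of the IL-6 family share, did not separate the groups. Probe set 1421239_at read 7.11, 6.98 and 8.28 on GFP-positive arrays, 8.11, 8.07 and 7.06 on GFP-negative arrays and 6.83, 7.43 and 7.29 on controls. The arrays at 8.07, 8.11 and 8.28 were all from dnMPL fractions, and each fraction also held an array within the control range. The difference from control was 0.28 ± 0.43 in GFP-positive cells (-0.14 when GFP-positive 3 was left out, 0.51 when GFP-positive 2 was) and 0.57 ± 0.43 in GFP-negative cells (limma adjusted p = 0.98 and 0.93). The 3 other Il6st probe sets differed from control by 0.24 to 0.83 in GFP-positive and by 0.26 to 1.23 in GFP-negative cells, all with overlapping groups. For 1452843_at the controls alone spanned 3.83 to 7.17, a range wider than any of these differences.

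**Figure D1:**
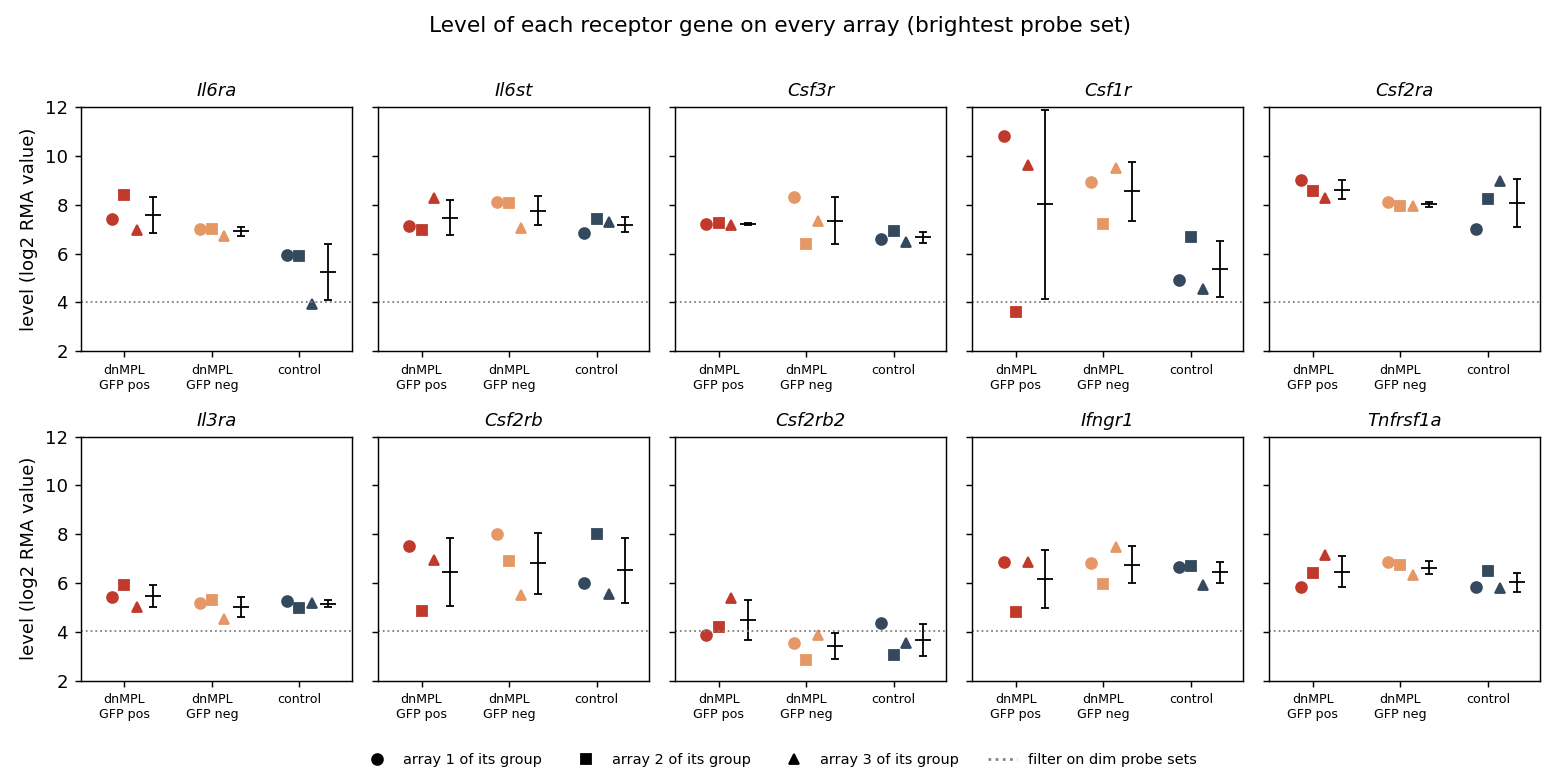
Level of each receptor gene on the 9 arrays, by its brightest probe set, in log2 RMA values on the vertical axis; points are arrays 1 to 3 of each group, black marks with bars the mean and SD (n = 3), and the dotted line the filter on dim probe sets. Il6ra is the gene in which all 6 dnMPL arrays lie above all 3 controls, and Csf1r has the widest spread, with GFP-positive 2 at 3.62.

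Csf3r, which drives granulocyte production in response to G-CSF, was slightly higher by point estimate in both dnMPL fractions. It read 7.20, 7.25 and 7.15 on GFP-positive arrays, 8.32, 6.39 and 7.35 on GFP-negative arrays and 6.60, 6.91 and 6.49 on controls. The GFP-positive arrays lay together, 0.047 apart by SD, and above every control, whereas GFP-negative 2 lay below the lowest control. The differences from control were 0.53 ± 0.43 in GFP-positive and 0.68 ± 0.43 in GFP-negative cells (limma adjusted p = 0.92 and 0.91), and the second was 0.20 without GFP-negative 1 and 1.17 without GFP-negative 2. The granulocyte markers given above were also higher by point estimate, in 14 of 14 genes in each fraction, with medians of 2.59 and 2.28, several times the Csf3r difference.

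Csf1r varied more between arrays of a group than almost any other gene. Probe set 1419872_at read 10.83, 3.62 and 9.62 on GFP-positive arrays, 8.93, 7.19 and 9.51 on GFP-negative arrays and 4.90, 6.68 and 4.56 on controls. Every dnMPL array but GFP-positive 2 lay above the controls, and GFP-positive 2 was the lowest of the 9. The within-group SD was 2.43, against a median of 0.49 over the genes tested, and at the 99.97th percentile of them. The difference from control was 2.64 ± 1.59 in GFP-positive cells and 3.16 ± 1.59 in GFP-negative cells (limma adjusted p = 0.85 and 0.89; 95% intervals -0.93 to 6.22 and -0.41 to 6.74). Without GFP-positive 2 the first was 4.84 (adjusted p = 0.45), and without GFP-positive 1 it was 1.24. Both SEs use a spread shared over all 9 arrays, so GFP-positive 2 also widens the GFP-negative interval. When only the 2 groups compared were fitted, the SEs were 1.74 for GFP-positive and 0.75 for GFP-negative cells. The GFP-negative difference then had a limma adjusted p of 0.59. On the GFP-positive arrays 1 to 3 the monocyte and macrophage markers other than Lyz2 summed to 651, 553 and 424.

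The other Csf1r probe sets showed no such range. 1423593_a_at lay at 5.05 to 5.77 on GFP-positive, 4.73 to 5.28 on GFP-negative and 4.51 to 5.59 on control arrays, and 1419873_s_at at 4.57 to 5.85, 4.60 to 5.27 and 4.37 to 4.83. Their differences from control were 0.27 and 0.49 in GFP-positive and -0.030 and 0.39 in GFP-negative cells, with SEs of 0.33 and 0.36, and all groups overlapped. Over the 9 arrays 1419872_at correlated with these probe sets at r = -0.44 and 0.46. With the mean of the 3 probe sets the Csf1r differences from control were 1.13 and 1.18.

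The alpha chains of the GM-CSF and IL-3 receptors did not pass the test in any comparison. Csf2ra (1420703_at) read 9.03, 8.55 and 8.27 on GFP-positive arrays, 8.11, 7.97 and 7.96 on GFP-negative arrays and 7.02, 8.22 and 8.95 on controls. The controls overlapped both dnMPL fractions, while the GFP-positive arrays all lay above the GFP-negative ones. That difference, GFP-positive minus GFP-negative, was 0.60 ± 0.45 (95% interval -0.41 to 1.62; limma adjusted p = 1.00). Against control, Csf2ra differed by 0.55 ± 0.45 in GFP-positive cells (0.029 without control 1 and 0.99 without control 3) and by -0.053 ± 0.45 in GFP-negative cells (0.39 without control 3). Its second probe set, 1420704_at, was lower in level, at 5.13, 6.79 and 5.75 on GFP-positive, 5.90, 4.92 and 3.55 on GFP-negative and 4.68, 4.42 and 4.71 on control arrays. There the GFP-positive arrays did lie above all controls, by 1.29 ± 0.59 (limma adjusted p = 1.00 over 45037 probe sets). With the mean of both probe sets Csf2ra differed from control by 0.92 in GFP-positive cells, and with array weights on 1420703_at by 1.07.

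Il3ra, the IL-3 binding chain, read 5.42, 5.93 and 5.04 on GFP-positive arrays, 5.20, 5.31 and 4.54 on GFP-negative arrays and 5.28, 4.99 and 5.20 on controls. It varied least of the 9 tested members, with a within-group SD of 0.36. Its groups overlapped in every comparison. It differed from control by 0.31 ± 0.32 in GFP-positive and -0.14 ± 0.32 in GFP-negative cells (95% intervals -0.42 to 1.04 and -0.87 to 0.59). The first was 0.075 without GFP-positive 2 and 0.52 without GFP-positive 3.

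The beta chains gave no separation either. Csf2rb (1421326_at) read 7.51, 4.87 and 6.94 on GFP-positive arrays, 8.00, 6.89 and 5.52 on GFP-negative arrays and 6.00, 8.03 and 5.54 on controls. Each group held both high and low arrays, and the within-group SD of 1.32 was at the 97.4th percentile of the genes tested. The difference from control was -0.080 ± 0.89 in GFP-positive cells, which became 0.71 without GFP-positive 2 and 0.67 without control 2, and 0.28 ± 0.89 in GFP-negative cells. These intervals, -2.07 to 1.91 and -1.71 to 2.27, leave room for changes of more than 1 log2 unit either way. The second probe set, 1455660_at, read 7.60, 4.13 and 7.33 on GFP-positive, 7.09, 5.67 and 5.44 on GFP-negative and 5.95, 5.44 and 6.58 on control arrays, again with GFP-positive 2 the lowest.

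Csf2rb2, the beta chain that serves IL-3 in mice, had a mean below the filter of 4.03 and was not tested. It read 3.86, 4.22 and 5.40 on GFP-positive, 3.55, 2.83 and 3.86 on GFP-negative and 4.37, 3.06 and 3.55 on control arrays. A further probe set, 1450200_s_at, is annotated to Csf2rb and Csf2rb2 together and was therefore not counted as a member. It stayed between 6.18 and 6.56 on all 9 arrays, with the value 6.43 on 3 of them, although 1421326_at of Csf2rb ranged from 4.87 to 8.03. The near-identical sequences of these genes mean that probe sets can share signal between them.

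**Figure D2:**
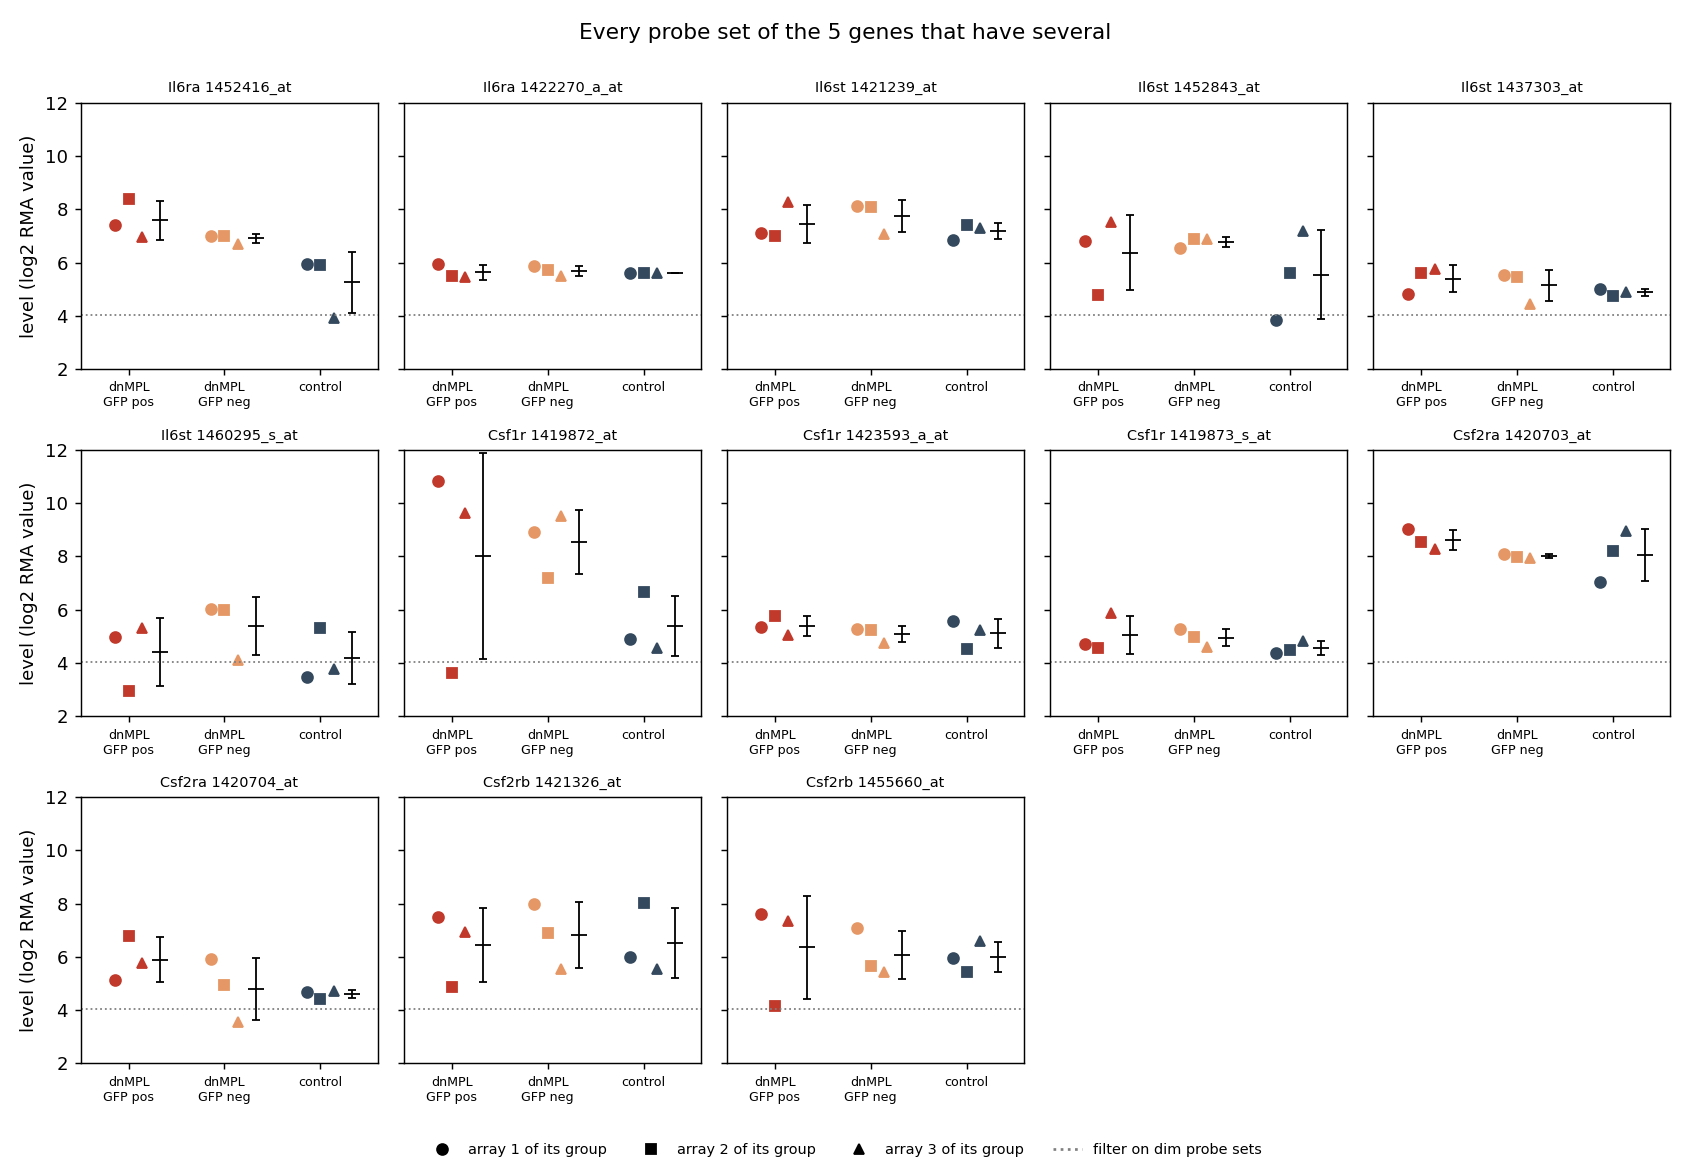
All 13 probe sets of the 5 genes that have several, in log2 RMA values on the vertical axis by group; points are arrays 1 to 3, black marks with bars the mean and SD (n = 3), and the dotted line the filter. In Il6ra 1 probe set separates both dnMPL fractions from controls, and in Csf1r 1 probe set separates the GFP-negative fraction only. Groups overlap in the other probe sets of Il6ra and Csf1r.

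Of the inflammatory receptors, Ifngr1 read 6.85, 4.81 and 6.86 on GFP-positive arrays, 6.82, 5.97 and 7.49 on GFP-negative arrays and 6.66, 6.71 and 5.94 on controls. GFP-positive 2 was the lowest of the 9. Ifngr1 differed from control by -0.26 ± 0.60 in GFP-positive cells, or 0.42 without GFP-positive 2, and by 0.32 ± 0.60 in GFP-negative cells. Tnfrsf1a read 5.85, 6.42 and 7.14 on GFP-positive arrays, 6.85, 6.72 and 6.34 on GFP-negative arrays and 5.84, 6.49 and 5.79 on controls. Control 2 reached above the lowest array of each dnMPL fraction, so no groups separated. The Tnfrsf1a differences from control were 0.43 ± 0.37 (0.092 without GFP-positive 3) and 0.60 ± 0.37 (limma adjusted p = 0.93 and 0.91).

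Across the members, 0 of the 9 tested genes passed an adjusted p under 0.05 in GFP-positive cells against controls, where 0 of all 12398 genes did (0% of genes tested; smallest adjusted p = 0.23). At an unadjusted p under 0.05 there was 1 member, Il6ra, against 805 genes or 6.49% of those tested. Groups did not overlap, with GFP-positive higher, for 2 members, Il6ra and Csf3r, against 4.36% of genes, and with GFP-positive lower for 0 members, against 4.26%. By point estimate 7 members were higher and 2 lower, where 47.2% of all genes were higher, and the median member differed by 0.43 against -0.028 for all genes. In these gene counts Il6ra stood by 1452416_at, which was chosen with the dnMPL arrays included. Counted by probe set, 3 of 18 did not overlap and were higher, against 3.52% of all probe sets.

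In GFP-negative cells against controls the counts were similar, and the same control arrays entered both comparisons. Again 0 of 9 members and 0% of 12398 genes passed in limma, and 1 member, Il6ra, had an unadjusted p under 0.05, against 691 genes or 5.57%. Il6ra and Csf1r did not overlap with control and were higher, which held for 4.94% of genes, and 0 members did so with GFP-negative lower, against 6.47%. By point estimate 7 members were higher and 2 lower, where 46.5% of all genes were higher, and the median member differed by 0.57 against -0.038 for all genes. Between the fractions, GFP-positive minus GFP-negative, 0 of 9 members passed in limma (0% of genes) and 0 had an unadjusted p under 0.05, against 316 genes or 2.55%. Csf2ra was the 1 member whose fractions did not overlap with GFP-positive higher, against 3.96% of genes, and 0 did so with GFP-positive lower, against 2.44%. By point estimate 3 members were higher and 6 lower, where 51.8% of all genes were higher, and the median member differed by -0.17. Counted by probe set, groups did not overlap with the first-named group higher for 2 of 18 in GFP-negative cells against controls (4.36% of all probe sets) and for 1 of 18 between the fractions (3.47%).

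**Figure D3:**
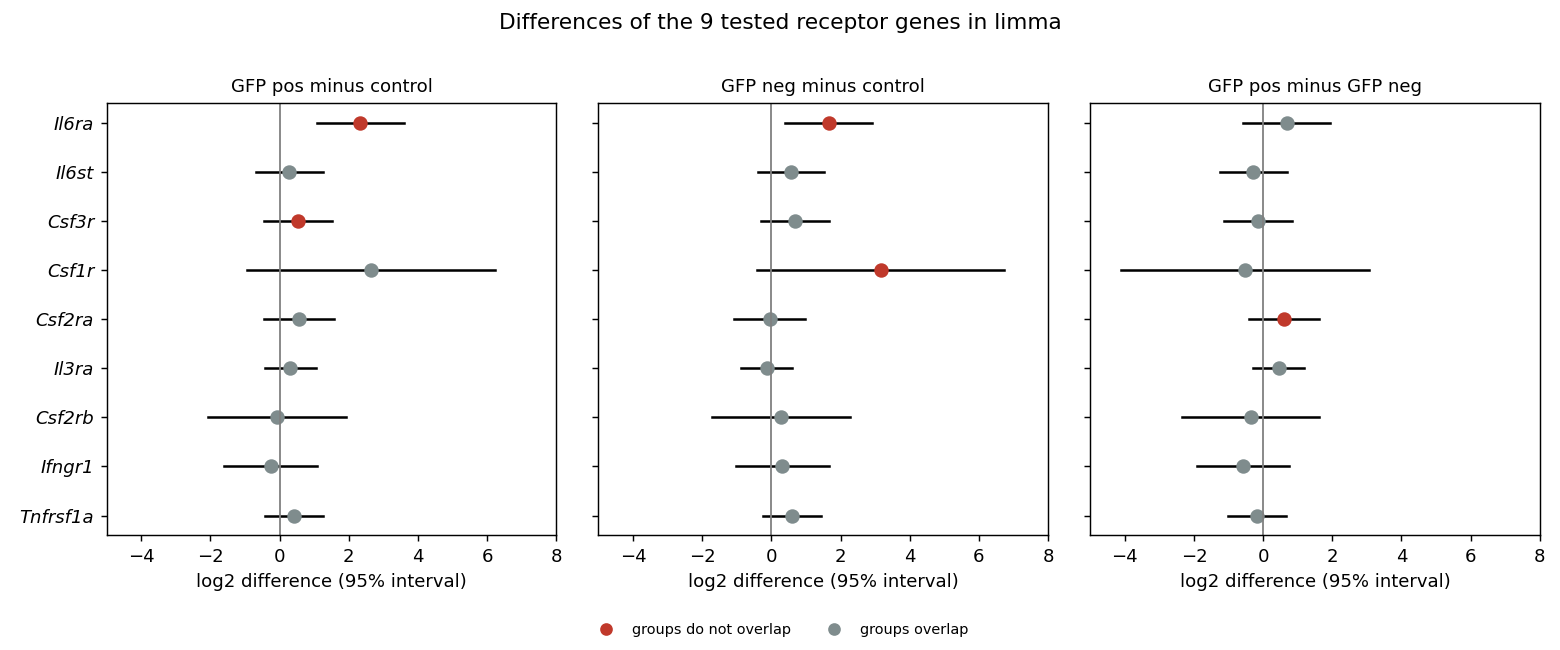
Log2 differences (horizontal axis) of the 9 tested members with 95% intervals from limma, in GFP-positive minus control, GFP-negative minus control and GFP-positive minus GFP-negative; red points mark groups that do not overlap. The intervals use the spread shared over all 9 arrays. With it, the interval excludes 0 for Il6ra against control in both fractions and for no other gene shown, before adjustment over all genes.

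The cells' own ligand genes were mostly dim. Of 13 ligands of these receptors and their relatives, 10 lay below the filter, among them Csf2, Csf3, Il3, Il6 and Ifng. Osm, a ligand that signals through Il6st, differed from control by 0.59 ± 0.47 in GFP-positive and 0.86 ± 0.47 in GFP-negative cells, or 0.23 and 0.50 without control 3. Tnf, the ligand of Tnfrsf1a, read 3.97, 5.32 and 3.98 on GFP-positive arrays, 3.75, 3.87 and 4.28 on GFP-negative arrays and 4.78, 4.29 and 5.76 on controls. All GFP-negative arrays lay below the controls, but narrowly, at 4.28 on GFP-negative 3 against 4.29 on control 2. The other GFP-negative arrays, and GFP-positive 1 and 3, lay below the filter value of 4.03. The difference from control was -0.97 ± 0.47 in GFP-negative cells (limma adjusted p = 0.88). GFP-positive 2 lay within the control range, and the difference in GFP-positive cells was -0.52 ± 0.47. Without control 3 these were -0.56 and -0.11.

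Among 9 other receptor chains tested, 0 passed in either comparison with control, and the medians were 0.11 in GFP-positive and 0.055 in GFP-negative cells. Tnfrsf1b, the type 2 TNF receptor, read 9.24, 9.79 and 9.30 on GFP-positive arrays, 8.80, 9.30 and 9.95 on GFP-negative arrays and 8.56, 9.09 and 7.72 on controls. The GFP-positive arrays lay above every control, with differences of 0.98 ± 0.42 in GFP-positive and 0.89 ± 0.42 in GFP-negative cells (limma adjusted p = 0.74 and 0.88), or 0.62 and 0.53 without control 3. Ifnar1, a chain of the type I interferon receptor, read 7.49, 7.90 and 7.02 on GFP-positive arrays 6.72, 6.30 and 6.93 on GFP-negative arrays and 6.75, 6.76 and 6.69 on controls. The GFP-positive arrays lay above every other array, a difference from control of 0.73 ± 0.30 (adjusted p = 0.73). Il7r, the receptor of lymphoid progenitors, differed by 1.04 ± 0.95 in GFP-negative cells, and by 0.25 without control 3.

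Of 16 kinases and signal transducers tested, 0 passed, with medians of -0.068 in GFP-positive and -0.077 in GFP-negative cells. Jak3, a JAK kinase that works with the common gamma chain of lymphoid cytokine receptors, read 6.38, 6.52 and 6.75 on GFP-positive arrays, 7.17, 7.01 and 6.60 on GFP-negative arrays and 7.85, 7.04 and 7.34 on controls. The GFP-positive arrays lay below every control, by -0.86 ± 0.30 (limma adjusted p = 0.70), and the GFP-negative difference was -0.48 ± 0.30. Pik3r1, the regulatory subunit of PI3 kinase, differed by -0.55 ± 0.31 in GFP-positive cells (-0.29 without GFP-positive 2) and Grb2, an adaptor of receptor signalling, by 0.47 ± 0.37 in GFP-negative cells (0.15 without control 3).

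Of 14 feedback regulators and phosphatases tested, 0 passed, with medians of 0.0044 in GFP-positive and -0.044 in GFP-negative cells. Cish, an inhibitor induced by STAT5, read 5.47, 4.66 and 4.93 on GFP-positive arrays, 4.62, 4.70 and 4.50 on GFP-negative arrays and 6.14, 6.26 and 5.11 on controls. The GFP-negative arrays lay below every control, by -1.23 ± 0.36 (limma adjusted p = 0.71), and GFP-positive 1 lay above control 3, with a difference of -0.82 ± 0.36 (adjusted p = 0.76). Without control 3 these were -1.59 and -1.18. Sh2b3, known as LNK and an adaptor that restrains Kit signalling, differed by 1.39 ± 0.53 in GFP-negative cells, with GFP-positive arrays at 7.26, 7.20 and 7.53, GFP-negative arrays at 7.42, 8.92 and 7.14 and controls at 5.50, 7.10 and 6.70. Pias3, an inhibitor of STAT3, differed by -2.16 ± 0.77 in GFP-positive cells (limma adjusted p = 0.71). There 2 arrays read 3.21 and 2.47, below the filter value of 4.03. The third read 5.56, inside the control range of 4.70 to 6.56. Without GFP-positive 2 the Pias3 difference was -1.52.

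The members did not follow a common pattern over the arrays. Pearson correlations between the 9 tested members ran from -0.85 (Il3ra and Ifngr1) to 0.83 (Il6st and Tnfrsf1a), and Il6ra and Il6st stood at 0.095. Over the 9 arrays, the other gene most like Il6ra was Ltn1 (r = 0.98), that most like Csf1r was Nubp1 (0.96), and that most like Ifngr1 was Tnip1 (0.99). For Csf3r it was Trib2 (0.91), for Csf2ra Ranbp9 (0.93), for Csf2rb Dennd11 (0.95), for Il3ra Ddx24 (0.96), for Il6st Mgat4a (0.95) and for Tnfrsf1a Pole4 (0.97). Each is the highest correlation among all genes tested, over few arrays that share groups, and 2 arrays that stood apart weigh on all of them.

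**Figure D4:**
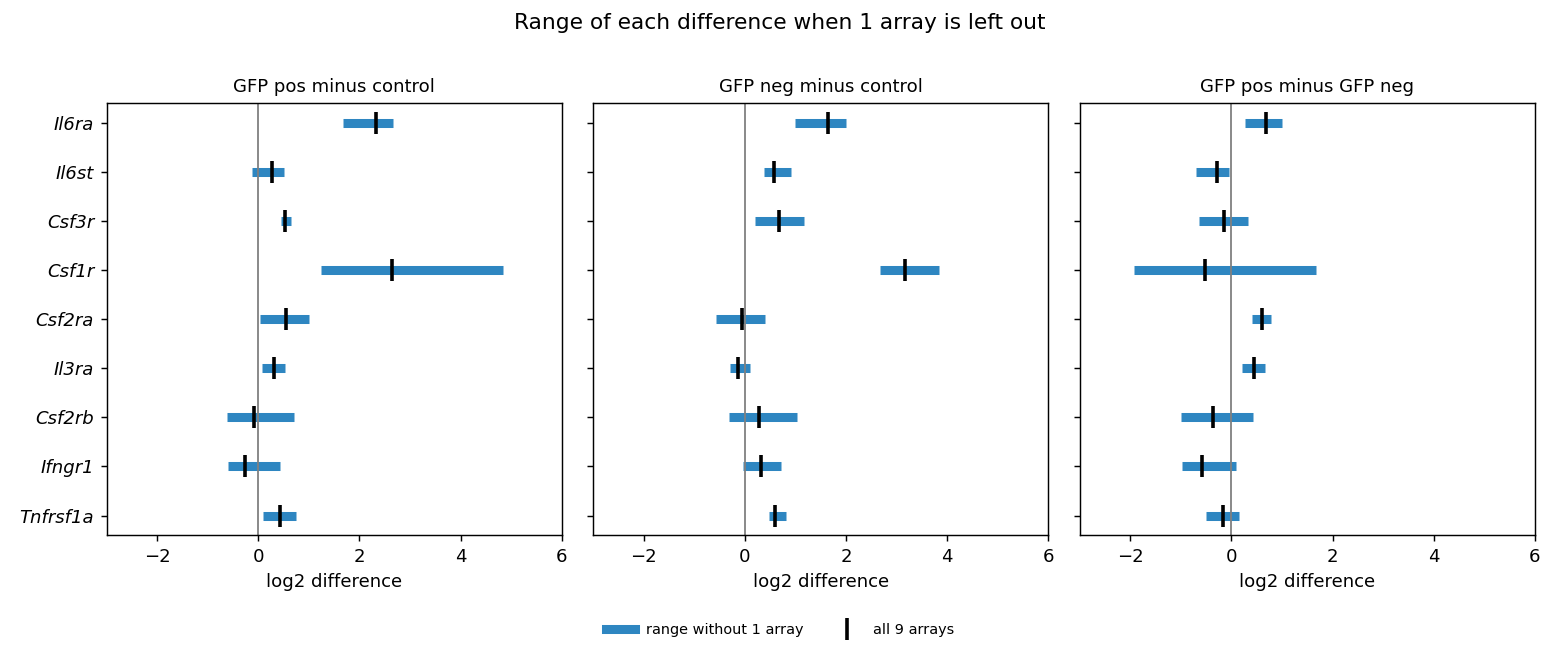
Range of each member's log2 difference (horizontal axis) when 1 of the 9 arrays is left out in turn (blue bars), with the value from all 9 arrays as a black mark, in the 3 comparisons. The bars of Il6ra, Csf1r, Csf3r and Tnfrsf1a stay above 0 against control in both dnMPL fractions, and those of Csf2rb and Ifngr1 cross it in each comparison.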

How the data were processed

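The deposited values were log2 values that the authors made with RMA, per the submitters' processing notes, which give no version. Median polish, the summary step of RMA, can give several arrays equal values (42.2% of probe sets, 3 of the 18 here). Scanner files were not analysed here. The 45101 probe sets included 64 controls, and 34945 named 1 gene, updated by Entrez number to RefSeq symbols in 34741. Each gene was represented by its brightest probe set, the one with the highest mean over all 9 arrays. Of 18193 genes, the 12398 with a mean above the 40th percentile (4.03) were tested. The test was limma 3.58.1 (R 4.3.3) over all 9 arrays, with Benjamini-Hochberg adjustment at 0.05. Differences of single probe sets came from a fit of all 45037. With 3 arrays a group, exact permutation gives no p below 0.1. The method was tested on simulated data. The number of arrays limits the precision.

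The members and the lists were chosen with earlier results of these data known. The text names all members, the 2 genes of each signalling list with the smallest p in each comparison with control, and the gene that correlated best with each member. Kit, Ly6a and the ligands below the filter are named as checks. The level of the transgene is not reported here. Alternatives changed the filter, the probe set, the normalization, the variance prior, array weights, the arrays in the fit and a replicate block. Figures used matplotlib 3.10.9 (Python 3.11.15).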

Additional observations from a re-analysis of the deposited data

How the results depend on the processing

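In limma, 0 genes and 0 members passed under every alternative run in the 3 comparisons, and the smallest adjusted p of any gene was 0.0523 to 0.63 in GFP-positive against control. Of 564 recomputed member differences, 531 kept their sign and 33 turned, and no difference had passed. Many of the 564 could not turn. Changing the filter or the variance prior, fitting only the 2 groups compared and adding the replicate block left the estimates unchanged. The same held when the array left out was not part of the comparison. With array weights, GFP-positive minus control was 0.37 for Csf2rb and 0.052 for Ifngr1, GFP-negative minus control 0.27 for Csf2ra and -0.041 for Ifngr1, and GFP-positive minus GFP-negative 1.60 for Csf1r, 0.23 for Csf2rb, 0.055 for Csf3r and 0.092 for Ifngr1. Without control 3 and GFP-positive 2 these were 0.21 and 0.17 for Csf2rb and Ifngr1, 0.39 for Csf2ra and -0.21 for Csf2rb, and 1.68, 0.42 and 0.098 for Csf1r, Csf2rb and Ifngr1. When all probe sets of a gene were averaged, Csf2rb was 0.14 in GFP-positive and Csf2ra 0.067 in GFP-negative cells against control. Leaving out each array in turn gave ranges, in GFP-positive minus control, of -0.61 to 0.71 for Csf2rb, -0.61 to 0.42 for Ifngr1 and -0.14 to 0.51 for Il6st. In GFP-negative minus control they were -0.57 to 0.39 for Csf2ra, -0.32 to 1.03 for Csf2rb, -0.29 to 0.10 for Il3ra and -0.048 to 0.72 for Ifngr1. In GFP-positive minus GFP-negative they were -1.93 to 1.68 for Csf1r, -1.005 to 0.42 for Csf2rb, -0.64 to 0.33 for Csf3r, -0.98 to 0.098 for Ifngr1 and -0.50 to 0.14 for Tnfrsf1a. The cause of these turns was not tested. The labels do not say whether same-numbered samples share mice, so the numbers were not used as pairs. Deviations of same-numbered arrays correlated at r from -0.29 to 0.099 over the 3 comparisons. Between the fractions they correlated at 0.099, -0.043 and -0.066. From so few arrays a group, these values cannot tell whether mice were shared. With the replicate block 0 genes passed and Il6ra differed by 2.33 in GFP-positive cells (limma adjusted p = 0.42). Il3ra has no value under the filter at the 60th percentile, which its mean misses. The values without single arrays for the ligands, other chains, transducers and regulators were chosen after seeing the data. Signal over background was not measured here.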
